A study of Mus musculus with 4 samples.

Results

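Cluster 2 of a single-nucleus RNA sequencing survey of mouse kidney cortex is a group of nuclei from the convoluted part of the proximal tubule. Its members are the columns numbered 2 in the authors' deposited table of cluster averages, 4 of 83 columns, 1 for each library. These columns stand for 1695 of the 16186 nuclei whose number could be recovered from the table, or 10.5%. Each value is a normalised level, the mean over nuclei of UMIs per 10000, and with 1 library per genotype no value has an error and no difference was tested. All statements on genotypes therefore describe 4 libraries, and differences between animals, litters or preparations cannot be told apart from differences between genotypes.

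The study compared the kidney cortex of mice with and without mutation of Sco2, on a lean and on a diabetic background, all on the C57BL/6J strain. Wild type (WT) mice carried neither mutation. Sco2KO/KI mice, with a knockout and a knock-in allele, were mutant for a mitochondrial copper chaperone needed to build cytochrome c oxidase. Mice labelled db/db are obese and diabetic for want of the signalling leptin receptor (Lepr), and Sco2KO/KI;db/db mice, called the double mutant here, combined both. All kidneys were perfused and kept in RNALater before nuclei were taken. Age, sex and the number of animals per library are not given in the labels.

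The proximal tubule reclaims most of the filtered glucose, amino acids, phosphate and bicarbonate. Its first, convoluted stretch begins with segment S1, which has dense apical sodium-coupled transporters and many mitochondria and passes into S2, while the straight S3 segment follows further down. The cells live largely on fatty acid oxidation, make glucose rather than burn it, take up filtered protein through Lrp2 and Cubn, and activate and degrade vitamin D.

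The 4 marker genes given for the cluster code for the lactate transporter Slc5a12, the neutral amino acid transporter Slc6a19, the sulfate transporter Slc13a1 and the hydroxyproline-degrading enzyme Prodh2.

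Nuclei behind cluster 2 numbered 415 (WT), 109 (Sco2KO/KI), 336 (db/db) and 835 (double mutant). The size of the cluster is not compared between genotypes, because Slc5a12, which defines the cluster, differed between libraries. The UMI totals that could be read back had medians of 3437, 5950.5, 3226 and 2601 in the same order, for 84.8%, 99.1%, 93.2% and 70.9% of the nuclei. Shallow nuclei are missed more often, so the medians lean upward. A level of 0.5 rests on about 104, 40.7, 67.8 and 133 UMIs, and values in Sco2KO/KI are thus the least precise. Sco2 itself was too low for a check of the labels, at 0.0198 in WT, listed at 0 in Sco2KO/KI, and at 0.00314 (db/db) and 0.0343 (double mutant).

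The marker genes were present in every library. Slc5a12 was at 33.8 (WT), 33.9 (Sco2KO/KI), 17 (db/db) and 38.1 (double mutant). Slc13a1 was at 21.4, 21, 21.8 and 23.8, so its level was close to even, while Slc5a12 was low in db/db. Slc6a19 was at 3.96, 2.76, 1.85 and 3.15, and Prodh2 at 2.76, 2.02, 3.97 and 3.90. General proximal tubule markers were also high, with Lrp2, the endocytic receptor megalin, at 25.9, 27.5, 32.7 and 18.4, and the phosphate transporter gene Slc34a1 at 55.7, 52.2, 40.3 and 53.6.

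Averaged over libraries, cluster 2 stood above the mean of the other clusters in all 4 markers. The log2 ratios, taken here and below after adding 0.1 to each value, were 2.44 for Slc5a12 (30.7 against 5.59), 1.85 for Prodh2, 1.75 for Slc6a19 and 1.75 for Slc13a1. Each of the 4 was nevertheless highest in cluster 1, at 38.1, 3.93, 3.57 and 22.5. Cluster 2 was second, so its markers place it in the convoluted tubule without being its alone.

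Segment markers ran in steps from cluster 1 through cluster 2 to cluster 0. Slc5a2, the main apical glucose transporter and an S1 marker, was at 8.12 in cluster 1, 4.74 in cluster 2 and 1.03 in cluster 0. The S1 genes Slc7a7 and Slc7a8, basolateral amino acid transporters, were at 12.9, 5.83 and 1.69, and at 9.67, 4.68 and 1.79. S2 genes ran the other way: the organic anion transporter gene Slc22a6 was at 1.06, 2.99 and 4.51, and the dicarboxylate transporter gene Slc13a3 at 2.40, 7.64 and 10.3. Genes of the straight segment were low, with the oxysterol hydroxylase gene Cyp7b1 at 0.132 in cluster 2 and 18 in cluster 7, and Atp11a at 2.75 and 16.4. The label of a convoluted segment is met by these values, which lie between those of the S1-rich cluster 1 and the S2-rich cluster 0.

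**Figure D1:**
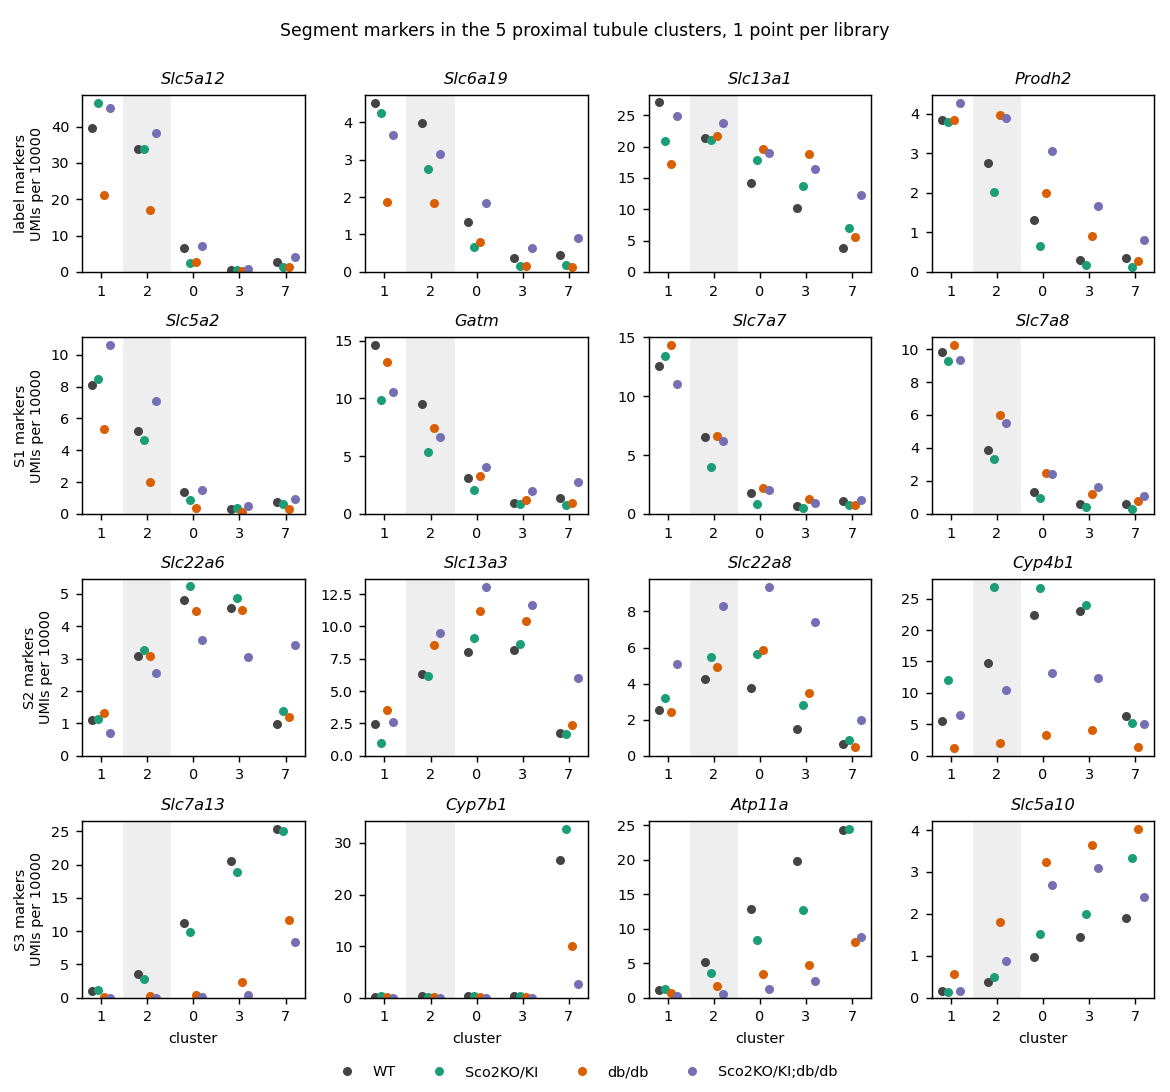
Each panel shows 1 segment marker, with the level in UMIs per 10000 on the vertical axis, the 5 proximal tubule clusters on the horizontal axis and 1 point per library. Cluster 2 lies between clusters 1 and 0 for S1 markers such as Slc5a2 (8.12, 4.74 and 1.03) and for S2 markers such as Slc13a3 (2.40, 7.64 and 10.3).

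The same stepwise order held across genes. Of 143 genes at least 2-fold higher in cluster 1 than in cluster 0, cluster 2 lay between the pair in 138 (WT), 132 (Sco2KO/KI), 135 (db/db) and 137 (double mutant). Among those also 2-fold apart in the same library, the median position on the way from cluster 0 to cluster 1 was 54.5%, 51.4%, 47.5% and 57.6%. Of 190 genes at least 2-fold lower in cluster 1, cluster 2 lay between in 178, 176, 175 and 175, at median positions of 39.1%, 37.9%, 33.1% and 43.2%. The clusters were made from these genes, so this is a description and no test.

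Against all other clusters 275 of 4556 genes at or above 0.5 were at least 2-fold higher in cluster 2 (6.04%) and 627 at least 2-fold lower (13.8%). The leading named genes after the markers included the lipid kinase gene Pik3c2g (log2 ratio 1.91), the adhesion gene Igsf11 (1.92), the cytochrome genes Cyp2d12 (1.87) and Cyp2j13 (1.83), the alkaline phosphatase gene Alpl (1.75), the lysophosphatidic acid receptor gene Lpar3 (1.74) and Tnfaip8 (1.72). Cyp24a1, which breaks down active vitamin D, also stood there at 1.72, but that ratio rests mostly on the double mutant. Near-identical copies exist in the Cyp2d and Cyp2j families, so the assignment of their reads is uncertain.

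Against the mean of the other 4 proximal tubule clusters the differences were few. Only 10 of 3861 genes were at least 2-fold higher (0.259%) and 88 at least 2-fold lower (2.28%). The higher genes, led by Slc5a12 (1.41), included Eml4, which binds microtubules (1.32), Arhgap15, which restrains Rac (1.29), the calcium release channel gene Itpr2 (1.15), the scaffold gene Iqgap2 (1.06), the carbonic anhydrase gene Car12 (1.03) and the protocadherin gene Pcdh7 (1.01). Apart from Arhgap15, these genes had a similar or higher level in cluster 1. Itpr2 was at 6.14 in cluster 2 and 8.37 in cluster 1, and Pcdh7 at 2.58 and 3.05. Eml4 was at 1.06 and 1.06, Iqgap2 at 2.60 and 2.53, and Car12 at 8.05 and 7.93. Arhgap15 was at 0.729 and 0.386, but at 30.9 in cluster 19. Cyp2d12 (1.18) was also among the higher genes, at 2.39 in cluster 2 and 1.76 in cluster 1. Its cluster 2 values were 5.25 (WT), 2.70 (Sco2KO/KI), 0.637 (db/db) and 0.972 (double mutant). The lower genes were led by Cyp7b1 (-4.35), the amino acid transporter gene Slc7a12 (-2.91), the brush border protease gene Mep1b (-2.84), the muscarinic receptor gene Chrm3 (-2.80) and the oestrogen receptor gene Esr1 (-2.55).

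RNA of other cells was present in these averages. The endothelial markers Flt1, Emcn, Kdr, Pecam1, Cdh5, Egfl7 and Ptprb, all highest in cluster 9, which is called endothelium-like here, summed to 0.705 (WT), 0.557 (Sco2KO/KI), 0.378 (db/db) and 0.503 (double mutant), with Egfl7 listed at 0 in all 4. The 6 thick ascending limb markers summed to 8.54, 7.66, 8.73 and 4.65, but Cldn10, a claudin gene, made up 4.38, 5.46, 6.97 and 3.33 of this and was highest in proximal tubule cluster 0, at 5.68. Without Cldn10, a choice made after seeing the data, the other 5 summed to 4.16, 2.21, 1.76 and 1.31, which puts WT highest. Connecting tubule markers summed to 4.31, 2.05, 3.59 and 6.82. Among the 6 or 7 podocyte genes detected per library, summing to between 15.6 and 21.6, Magi2 alone gave 19.3 (WT) and 20.8 (Sco2KO/KI). Injury markers summed to 0.335, 0.423, 0.234 and 0.211. Straight segment markers summed to 14.2, 10.9, 5.90 and 2.74, so the libraries differ most in that list among those given here, and its part in the results was not tested.

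The comparison of Sco2KO/KI with WT concerns the Sco2 mutation in lean mice. In cluster 2 of Sco2KO/KI, transcripts of the mitochondrial genome and several fatty acid oxidation genes exceeded WT, and single genes such as Cyr61, Pdgfd and Cpn1 lay below. Of 3933 genes at or above 0.5 in either library, 63 were at least 2-fold higher (1.6%) and 74 at least 2-fold lower (1.88%). The median log2 ratio of all genes was -0.04, and 46.0% of them lay above 0.

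Of the 13 mitochondrially encoded genes, 12 passed the floor and all 12 were higher, 8 of them at least 2-fold, with a median log2 ratio of 1.09. The remaining gene, mt-Nd6, was at most 0.159 in any library. The complex I subunit gene mt-Nd2 was at 7.45 (WT), 24.2 (Sco2KO/KI), 4.41 (db/db) and 7.60 (double mutant). The ATP synthase subunit gene mt-Atp8 was at 0.712, 3.55, 0.856 and 1.44. Sco2KO/KI is thus the highest library for both. Nuclear-encoded partners did not share the shift: the median was -0.28 for 13 complex I subunits, -0.14 for 12 of complex V and 0.19 for 7 of complex IV, with 0 genes past 2-fold in any of these lists. In libraries of nuclei, transcripts of the mitochondrial genome come from outside the nucleus, and mt-Nd2 in the endothelium-like cluster 9 had a log2 ratio of 1.46 against 1.69 in cluster 2. How much of the difference was carried-over RNA was not tested.

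Fatty acid oxidation and PPAR alpha target genes had a median of 0.33, with 13 of 15 higher and 3 at least 2-fold. Those 3 were the omega-hydroxylase gene Cyp4a12a (0.706 and 2.07), the peroxisomal enzyme gene Ehhadh (0.378 and 1.03) and Cyp4a31 (0.389 and 0.997). Ehhadh and Cyp4a31 passed the floor in Sco2KO/KI but not in WT, so the floor favoured a higher value for them. Reads of Cyp4a genes can be split between near-identical copies. G6pc, the last enzyme of gluconeogenesis, was at 1.94 (WT) against 4.12 (Sco2KO/KI), or on the log2 scale 1.05, while Pck1, the entry enzyme, was at 16.4 and 16.6.

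Apical transport genes were split: 10 of 21 were higher, the median was -0.00, and the peptide transporter gene Slc15a2 alone passed 2-fold, at 0.354 and 0.878. Endocytosis genes had a median of 0.08 and amino acid catabolism genes -0.02. Among segment transcription factors, Hnf4g was at 3.69 and 7.83 and the nuclear receptor gene Rxra at 0.515 and 0.175, the latter a log2 ratio of -1.16. The 7 immediate early and heat shock genes above the floor, which respond to tissue handling, were all lower with a median of -0.54, and 2 of them, Dusp1 and Hsph1, at least 2-fold. Dusp1 (1.27 and 0.422) and Zfp36 (0.997 and 0.455) passed the floor in WT but not in Sco2KO/KI, so the floor favoured a lower value for them.

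Single genes differed by more than any list median. Npas3, a neuronal transcription factor gene on chromosome 12 (53248677 to 54072175, plus strand, mm10), was at 0.0356 (WT), 3.41 (Sco2KO/KI), 1.61 (db/db) and 3.49 (double mutant), so WT stands alone as low. Col6a6, a collagen chain gene, was at 0.0176, 1.87, 0.0581 and 0.288, high in Sco2KO/KI only. Pcdh7 was at 0.637, 6.37, 3.01 and 0.326. Their log2 ratios against WT were 4.69, 4.07 and 3.13, and those in cluster 9 were 0.09, 0.16 and -1.22.

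Other named genes above WT were the triadin gene Trdn (0.206 and 1.26), the chaperone gene Pdia4 (0.234 and 1.32), the phosphodiesterase gene Pde11a (0.111 and 0.762), Angptl7 (0.0258 and 0.705) and Pced1b (0.0690 and 0.509). Ugt1a10, a glucuronosyltransferase gene that shares exons with its neighbours, was listed at 0 in WT but had 1.07 in Sco2KO/KI. Its relative Ugt2b38 showed the reverse, at 3.50 in WT, listed at 0 in Sco2KO/KI, and at 2.93 and 0.889 in the other libraries. Reads from either gene may be split among near-identical copies.

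Below WT, the osteopontin gene Spp1 was at 2.71 (WT) against 0.393 (Sco2KO/KI), and at 1.32 (db/db) and 2.64 (double mutant). The growth factor gene Pdgfd was at 1.17 and 0.163, and Cyr61, a matrix protein gene, at 0.788 and 0.120. Spp1 was higher in the endothelium-like cluster 9 than in cluster 2, at 4.65 (WT) against 1.42 (Sco2KO/KI). The part of carried-over RNA in its cluster 2 level was not tested. Spp1, Pdgfd and Cyr61 belong to the extracellular matrix and fibrosis list, which as a whole had 3 of 7 genes higher, 4 lower and a median of -0.08. The carboxypeptidase gene Cpn1 was at 1.08 and 0.0552, a log2 ratio of -2.93, and Erlin1, which acts in sterol control at the endoplasmic reticulum, at 3.37 and 0.747. The cytoskeletal linker gene Epb41l3 was at 5.46 and 1.49. Slc12a1 and Slc8a1, genes of later nephron segments, were at 1.67 and 0.505 and at 2.02 and 0.567. They are themselves markers in the thick ascending limb and connecting tubule lists, which summed to 4.16 and 2.21 (Cldn10 left out) and to 4.31 and 2.05, and the part of such RNA in the other lower genes was not tested.

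The 24 named genes at the extremes had the same sign in each of the other 4 proximal tubule clusters. A few genes lay far from the median of those clusters, though single clusters came close, and no test was made. Eml4 was at 0.614 (WT) against 1.66 (Sco2KO/KI), or on the log2 scale 1.30 against a median of -0.33 and a range of -0.62 to 1.24. The transthyretin gene Ttr had 1.30 against -0.27, with 0.94 as the highest of the other clusters. The potassium channel gene Kcnc2, at 1.12 and 0.160, had -2.24 against a median of -0.72 and a range of -2.11 to -0.52. Csgalnact1, a chondroitin sulfate enzyme gene, had -1.01 against a median of 0.19, inside the range of -1.63 to 0.65.

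The db/db library was set against WT for the diabetic background with Sco2 intact. Lower genes outnumbered higher ones: of 4012 genes 92 were at least 2-fold higher (2.29%) and 149 at least 2-fold lower (3.71%), although 56.3% of all genes lay above 0. Androgen-regulated, immediate early and heat shock genes above the floor mostly lay below WT, and fatty acid oxidation genes were mixed.

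Apical transporters did not differ in 1 direction. Slc5a2, which carries most glucose uptake, was at 5.21 (WT), 4.67 (Sco2KO/KI), 2.03 (db/db) and 7.07 (double mutant), lowest in db/db. The mannose and fructose transporter gene Slc5a10, a gene of later segments, was at 0.380, 0.506, 1.81 and 0.884, highest in db/db. Of 20 apical genes 11 were higher and the median was 0.10, with Slc5a10 past 2-fold upward (1.99) and Slc5a2 (-1.32) and Slc6a19 (-1.06) downward. Slc5a2, Slc5a12 and Slc6a19 are also genes that set the cluster apart, and the median position of cluster 2 between clusters 0 and 1 was 47.5% in db/db and 54.5% in WT, whose part in these values was not tested. On the basolateral side the sodium pump regulator gene Fxyd2 was at 8.29 (WT) against 2.64 (db/db), a log2 ratio of -1.61.

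Metabolic genes showed a pattern of single steps. The fatty acid hydroxylase gene Cyp4a10 was at 0.166 and 1.10 and Cyp4a31 at 0.389 and 1.03, while Ppara, the receptor that drives transcription of fatty acid oxidation genes, was at 10.8 and 6.92. Fatty acid oxidation genes had a median of 0.14, with 11 of 17 higher. Cyp4a10 and Cyp4a31 passed the floor in db/db but not in WT, so the floor favoured a higher value for them. The ammonia-forming gene Glud1 (3.33 and 8.00) was higher, with a log2 ratio of 1.24. Kynu and Gldc, which break down kynurenine and glycine, were at 1.88 and 5.39 and at 2.38 and 4.97. The rest of the amino acid catabolism list mostly lay the other way, with 13 of 18 genes lower, 5 higher and a median of -0.16.

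Mitochondrially encoded genes lay below WT in 11 of 12, with a median of -0.65 and mt-Nd4 at 9.26 and 4.22. The nuclear complex IV genes Cox8a (1.53 and 0.542) and Cox6a1 (1.18 and 0.534) were lower too, and the median of that list was -0.43 over 7 genes. Complex I and V lists had -0.23 and -0.36. Mitochondrial biogenesis and dynamics genes, in contrast, lay above WT in 11 of 11, by a median of 0.23 and with 0 past 2-fold.

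Androgen-regulated and sex-biased genes had the lowest median of the lists compared between these libraries, -2.06. Of the 9 above the floor 8 were lower, 6 at least 2-fold. The kidney androgen-regulated protein gene Kap was at 28.9 (WT), 29.1 (Sco2KO/KI), 3.49 (db/db) and 2.53 (double mutant). Slc7a13, a cystine transporter gene of the straight segment, was at 3.58, 2.77, 0.216 and 0.0167. Both split the libraries by db/db genotype. Kap was higher in the endothelium-like cluster 9, at 48.0, 59.1, 5.82 and 5.78, and the part of carried-over RNA in its cluster 2 level was not tested. Slc7a13 was there at 2.93, 1.83, 0.137 and 0.0419, below its level in cluster 2 in 3 libraries and above it in the double mutant. Cyp4b1, at 14.7 (WT), 26.8 (Sco2KO/KI), 2.07 (db/db) and 10.5 (double mutant), and the ornithine decarboxylase gene Odc1, at 1.47, 0.833, 0.276 and 0.377, were low in db/db as well. Slc7a13 and Odc1 passed the floor in WT but not in db/db, so the floor favoured a lower value for them.

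Of the 20 immediate early and heat shock genes measured, 7 were above the floor, and all 7 were at least 2-fold lower in db/db. Their median was -1.94. Jun, Zfp36 and Dusp1 passed the floor in WT but not in db/db, so the floor favoured a lower value for them. Jun was at 1.30 (WT), 0.960 (Sco2KO/KI), 0.192 (db/db) and 0.162 (double mutant). The chaperone gene Hspa8 was at 5.64, 3.89, 1.40 and 1.24, and Zfp36, which destabilises messenger RNAs, at 0.997, 0.455, 0.0791 and 0.293. WT had the highest level of each, and handling of the tissue before storage cannot be told apart from genotype.

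Further genes above WT were the collagen gene Col27a1 (2.27 and 16.6), the secretion gene Cadps2 (0.196 and 2.05), the translational regulator gene Cpeb3 (6.23 and 27.2), the signalling gene Sipa1l2 (0.157 and 0.912) and the retinoic acid receptor gene Rarb (0.192 and 1.01). Genes below WT included Tmem252 (1.73 and 0.0963), the cytokine gene Il34 (1.71 and 0.170), the aminoacylase gene Acy3 (2.82 and 0.445), the repressor gene Bcl6 (4.18 and 0.760) and Cyp2d12 (5.25 and 0.637). Among the 24 named genes 22 had the same sign in the other 4 proximal tubule clusters, the exceptions being Cyp2d12 and Cntnap5a. The efflux pump gene Abcc4, at 2.41 and 5.58, had a log2 ratio of 1.18 against a median of 2.91 in the other proximal tubule clusters, and Klf6 had -1.45 against -0.11, both inside the range of those clusters (0.48 to 4.52, and -1.51 to 0.34). The choline-pathway enzyme gene Dmgdh, at 0.193 and 0.976, had 1.88 against 0.79, and the oxidase gene Rnls 1.02 against -0.26, where the highest of the other clusters were 1.16 and 0.87.

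**Figure D2:**
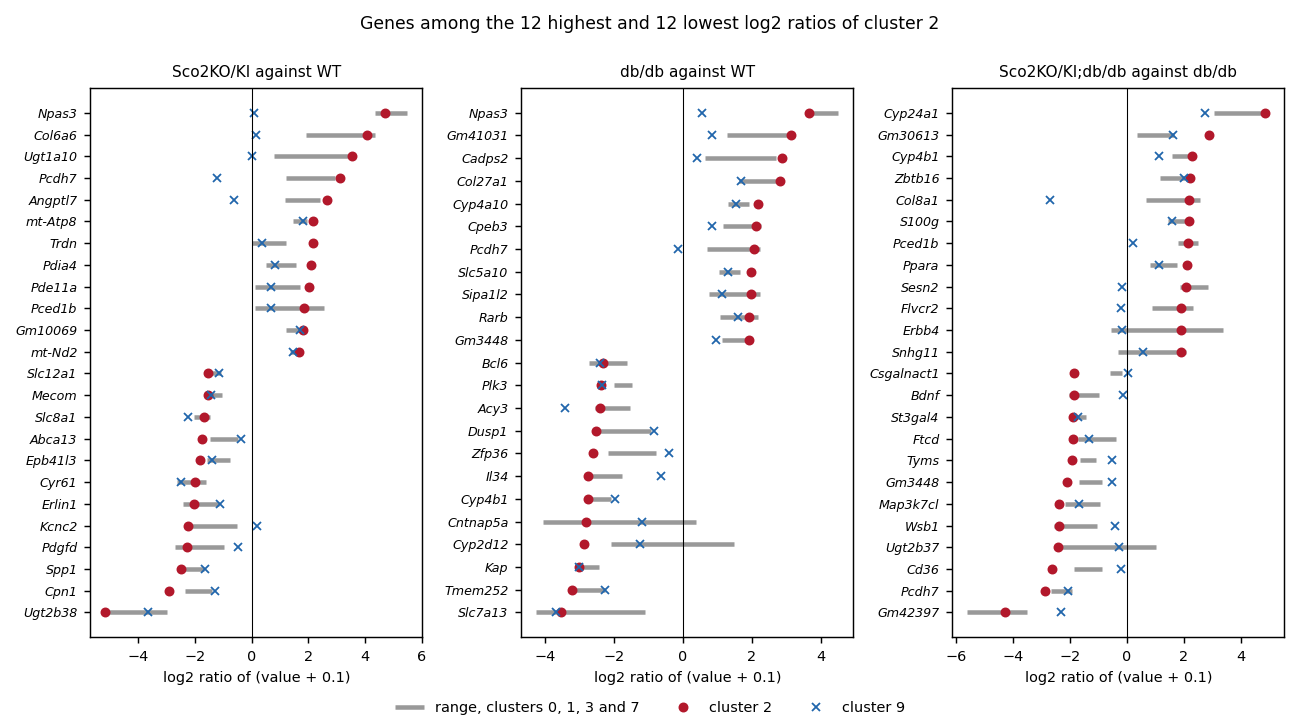
For each of 3 comparisons genes among the 12 top and 12 bottom of cluster 2 by log2 ratio are drawn as red points, with the range over clusters 0, 1, 3 and 7 as grey bars and the endothelium-like cluster 9 as blue crosses. Horizontal axes are log2 ratios of values plus 0.1, and ratios with a library at 0, such as Ugt2b38, depend on that addition. Npas3 at 4.69 and Cyp24a1 at 4.84 lead. The crosses for Npas3 lie at 0.09 (Sco2KO/KI against WT) and 0.56 (db/db against WT), and that for Kap at -3.02.

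The double mutant was set against db/db for the Sco2 mutation on the diabetic background. Higher genes were the more frequent: of 4005 genes 161 were at least 2-fold higher (4.02%) and 73 at least 2-fold lower (1.82%), while 42.1% of all genes lay above 0. Cyp24a1, G6pc and most fatty acid oxidation genes above the floor exceeded db/db, and Cd36 and Slc5a8 lay below.

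Cyp24a1 (chromosome 2, 170482708 to 170497145, minus strand) was at 0.445 (WT), 0.979 (Sco2KO/KI), 0.206 (db/db) and 8.67 (double mutant). The double mutant stands apart from the 3 other libraries, with a log2 ratio of 4.84 against db/db. In the endothelium-like cluster 9 of the double mutant Cyp24a1 was at 0.867. Other genes of vitamin D and phosphate handling also lay above db/db, among them the vitamin D receptor gene Vdr (1.64 and 4.12), the calcium-binding protein gene S100g (0.489 and 2.55) and the phosphate transporter gene Slc34a3 (0.208 and 0.574). Of the 10 in that list above the floor 7 were higher, 4 at least 2-fold, with a median of 0.55 against -0.08 over all genes. Cyp24a1, S100g and Slc34a3 passed the floor in the double mutant but not in db/db, so the floor favoured a higher value for them. Cyp27b1, which activates vitamin D, did not separate this pair, at 0.880 and 0.80, but was lower in WT (0.226) and Sco2KO/KI (0.374). S100g is abundant in the connecting tubule, whose markers, S100g among them, summed to 3.59 (db/db) and 6.82 (double mutant).

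Ppara was at 10.8 (WT), 15.9 (Sco2KO/KI), 6.92 (db/db) and 30.0 (double mutant). Its target genes lay the same way in this pair: Ehhadh was at 0.384 and 1.48 and Angptl4 at 0.171 and 0.724. The carnitine carrier gene Slc25a20 was at 0.419 and 1.02. Of 21 fatty acid oxidation and PPAR alpha genes above the floor 18 were higher, 6 at least 2-fold, with a median of 0.59. Ehhadh, Angptl4 and Slc25a20 passed the floor in the double mutant but not in db/db, so the floor favoured a higher value for them. Cyp4a10 and Cyp4a31, both high in db/db already, had log2 ratios of -0.20 and -0.14. Ppara lies 3.60 Mb and Vdr 8.51 Mb from Sco2 on chromosome 15, and the part of sequence linked to the Sco2 alleles was not tested.

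**Figure D3:**
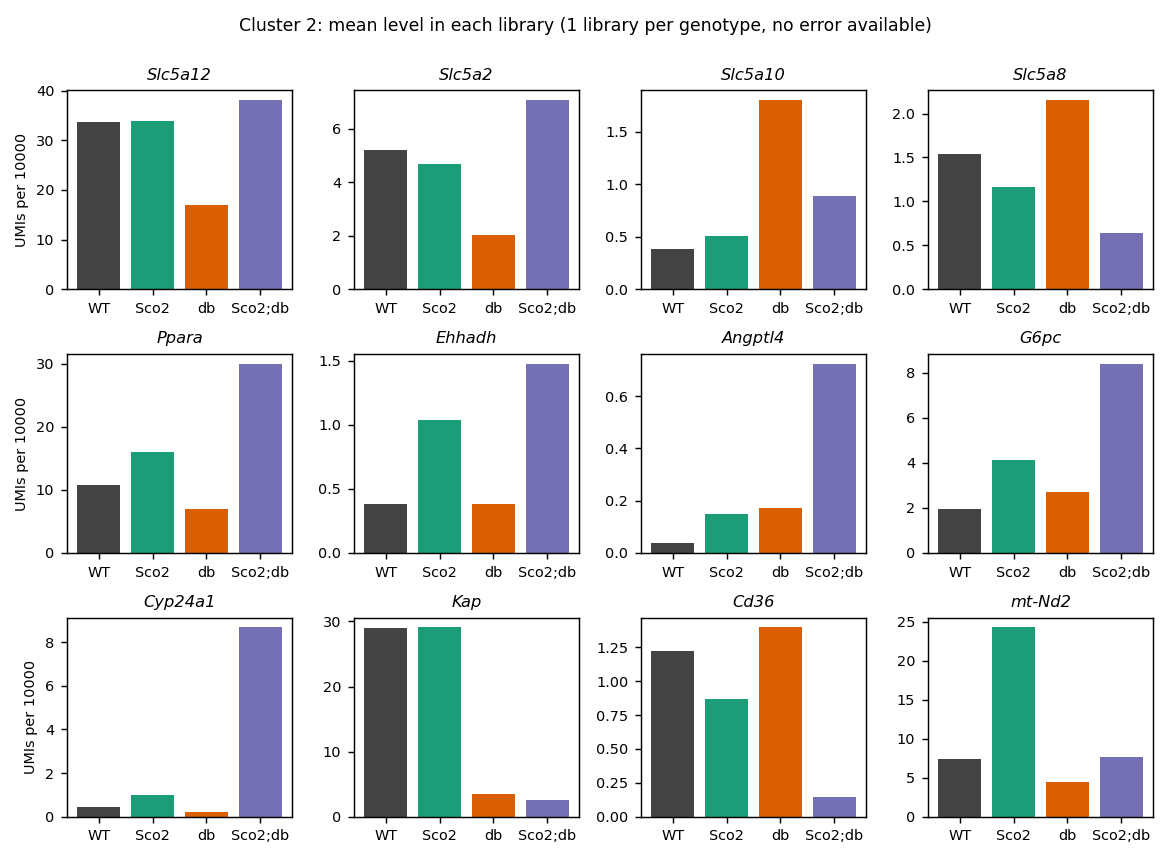
Bars give the level of 12 genes in cluster 2, in UMIs per 10000 from 0, in WT, Sco2KO/KI (Sco2), db/db (db) and the double mutant (Sco2;db), 1 library each with no error available. Ppara (30.0), G6pc (8.39) and Cyp24a1 (8.67) are highest in the double mutant, mt-Nd2 (24.2) in Sco2KO/KI, and Kap is low in both libraries with db/db (3.49 and 2.53).

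Glucose and transport genes also differed in this pair. G6pc was at 2.72 (db/db) against 8.39 (double mutant), while Pck1 was at 16.2 and 12.6. The gluconeogenesis and ammonia list had 5 of 11 genes higher, 6 lower and a median of -0.00. Slc5a2 (2.03 and 7.07) and Slc5a12 (17 and 38.1) were higher, and their double mutant levels were above those of WT. Slc5a8, a lactate and short-chain fatty acid transporter gene, was at 2.16 and 0.635, and the glycine transporter gene Slc6a18 at 1.24 and 0.471. The apical list as a whole had 10 of 21 genes higher and a median of -0.00. The endocytic receptor gene Lrp2 had a log2 ratio of -0.83.

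Mitochondrially encoded genes lay above db/db in 12 of 12, 4 at least 2-fold, with a median of 0.91 and mt-Nd4 at 4.22 and 9.62. Against WT the double mutant was also higher in 12 of 12, with 0 past 2-fold. That median was 0.42, beside -0.01 over all genes. Complex V subunits had 11 of 12 higher and a median of 0.45, with Atp5g3 at 0.498 and 1.25. Complex IV subunits had a median of 0.48 over 6 genes and complex I subunits 0.19 over 11. Single genes above db/db were Sesn2 (0.240 and 1.34), Txnip (0.705 and 1.86), Foxo3 (2.37 and 5.04) and the glucocorticoid-induced genes Fkbp5 (1.99 and 5.85) and Zbtb16 (0.0544 and 0.621). Sesn2 restrains growth signalling, Txnip binds thioredoxin, and Foxo3 is a transcription factor held back by insulin. The insulin and leptin signalling list, which holds these 3, had 6 of 11 genes higher and a median of 0.13. The glucocorticoid list had 5 of 8 higher and a median of 0.16, and of 2 integrated stress response genes above the floor 1 was higher, Sesn2.

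Below db/db, the fatty acid uptake gene Cd36 was at 1.22 (WT), 0.869 (Sco2KO/KI), 1.40 (db/db) and 0.144 (double mutant). Cluster 9 had Cd36 at 2.09, 1.31, 0.981 and 0.844, where the gene is an endothelial transcript, and these levels are above that of cluster 2 in 3 libraries. Cd36 was higher still in proximal tubule cluster 3, at 4.11, 4.78, 4.11 and 1.51, and cluster 7, at 4.21, 5.58, 4.56 and 2.44. The part of carried-over RNA in the cluster 2 values was not tested. Pcdh7 was at 3.01 and 0.326, the ubiquitin ligase adaptor gene Wsb1 at 4.08 and 0.702, and the folate enzyme gene Ftcd at 1.16 and 0.243. Gm42397, an unnamed gene model on chromosome 7, was at 18.9, 26.2 and 12.5 in the first 3 libraries and 0.549 in the double mutant. Of the 24 named genes 21 kept their sign in the other 4 proximal tubule clusters, the exceptions being Erbb4, Snhg11 and Ugt2b37. Cd36 had a log2 ratio of -2.62 against a median of -1.33 there, Csgalnact1 -1.84 against -0.35 and Slc5a8 -1.62 against -0.47, where the lowest of those clusters were -1.84, -0.60 and -1.10.

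**Figure D4:**
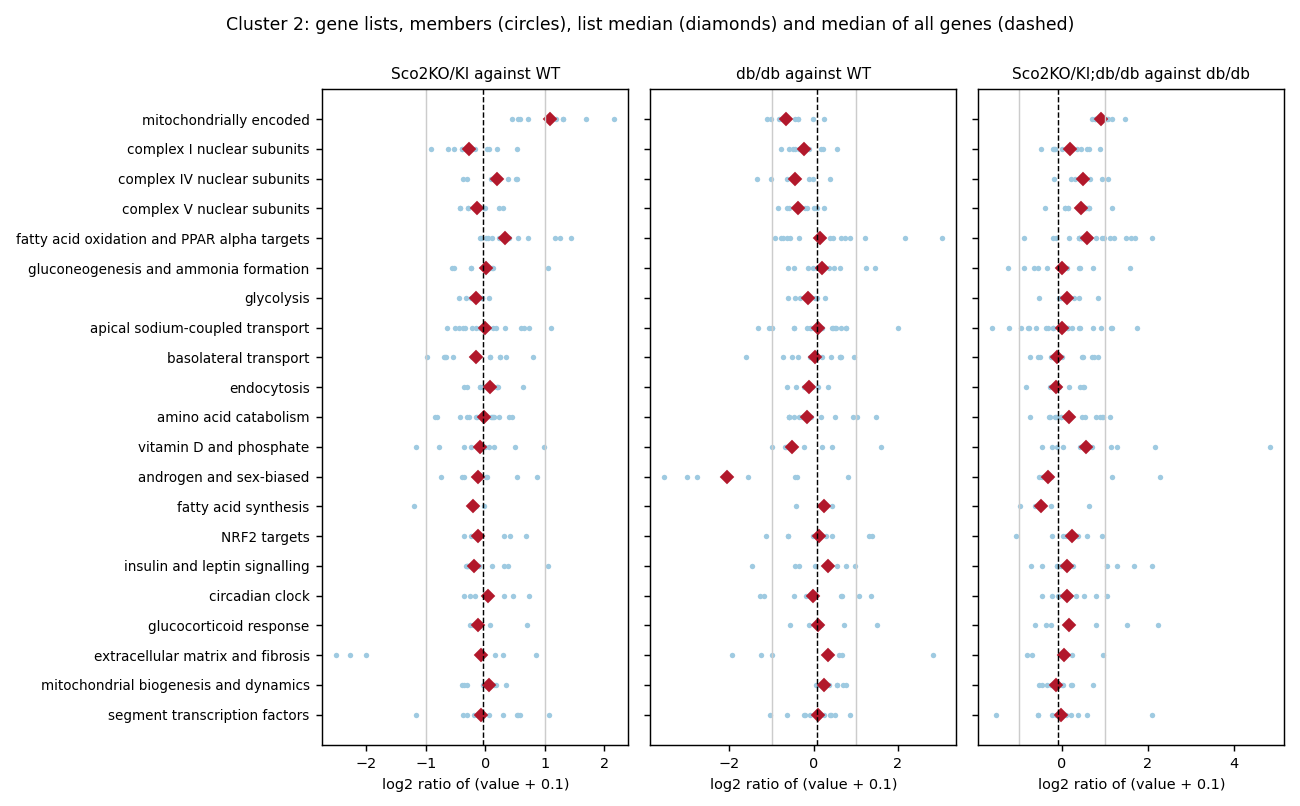
Circles are the genes of each list above the floor, diamonds the list medians and dashed lines the median of all genes, on log2 ratios of values plus 0.1 in cluster 2. The mitochondrially encoded list is at 1.09, -0.65 and 0.91 in the left, middle and right panel, and the androgen and sex-biased list is at -2.06 in the second.

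The double mutant against Sco2KO/KI, the diabetic background with Sco2 mutant, gave 121 of 3981 genes at least 2-fold higher (3.04%) and 91 at least 2-fold lower (2.29%), with 53.8% above 0. Cyp24a1 and Cyp4a14 were among the 5 highest, with Cyp4a14 at 0.00968 and 0.805, and Gm42397, Slc7a13 and Kap among the 5 lowest. Against WT the double mutant had 113 of 4024 genes higher (2.81%) and 119 lower (2.96%), with 48.9% above 0. Npas3 and Cyp24a1 led (4.73 and 4.01), and Slc7a13 (-4.98) and Atp11a (-3.10), both straight segment genes, were among the lowest.

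The Sco2 mutation was thus seen in a lean and a diabetic pair with no library in common. Among 4332 genes 19 were at least 2-fold higher in both pairs (0.439%). These are 27.9% of those higher in the lean pair, beside 3.90% of all genes higher in the diabetic pair. They are 11.2% of those higher in the diabetic pair, beside 1.57% of all genes higher in the lean pair. Another 12 were lower in both (0.277%), or 14.8% and 15.2%, beside 1.82% and 1.87% of all genes. Pearson's r across genes, which are not independent, was 0.14. Ehhadh, at 0.378 and 1.03 lean and 0.384 and 1.48 diabetic, mt-Nd4, the carboxylesterase gene Ces1d (1.10 and 2.5, then 2.05 and 4.80) and the transcription factor gene Etv5 (0.338 and 0.928, then 0.276 and 1.23) were higher in both. The mitochondrial glycerol phosphate dehydrogenase gene Gpd2 (1.33 and 0.489, then 1.12 and 0.307), the lipid kinase gene Pik3c2a (4.45 and 1.60, then 3.64 and 1.67) and Kazn (2.51 and 1.01, then 3.03 and 1.23) were lower in both.

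Another 15 of the 4332 genes went at least 2-fold in opposite directions, 13 of them lower in the lean pair and higher in the diabetic one. The chromatin remodeller gene Chd9 was at 42.9 (WT), 19 (Sco2KO/KI), 10.5 (db/db) and 38.2 (double mutant). Sugct, a mitochondrial glutarate enzyme gene, was at 12.3, 4.77, 5.23 and 16. In both genes the single mutants were low and WT and the double mutant high, and neither the difference between pairs nor its dependence on library preparation was tested.

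The db/db genotype was likewise seen with and without the Sco2 mutation. At least 2-fold higher in both pairs were 20 genes (0.462%). These are 21.1% of those higher with Sco2 intact, beside 2.91% of all genes higher with Sco2 mutant. They are 15.9% of those higher with Sco2 mutant, beside 2.19% of all genes higher with Sco2 intact. At least 2-fold lower in both were 38 (0.877%), or 24.7% and 38.8%, beside 2.26% and 3.55% of all genes. Pearson's r across genes was 0.27. Another 10 of the 4332 genes went at least 2-fold in opposite directions, 3 of them higher with Sco2 intact and 7 lower. Of these 10, 9 are among the 15 that did so for the Sco2 mutation. That overlap is no separate result, because a gene's difference between the pairs is the same number in both sets. Kynu was at 1.88 (WT), 1.01 (Sco2KO/KI), 5.39 (db/db) and 5.32 (double mutant), and the glutathione transferase gene Gsta2 at 0.495, 0.452, 1.45 and 1.91. These levels split the libraries by db/db genotype, as did those of Rarb on the higher side and of Il34, Slco1a1 and Jun on the lower side. Lpl, the lipoprotein lipase gene, was at 1.11, 1.17, 0.256 and 0.285.

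**Figure D5:**
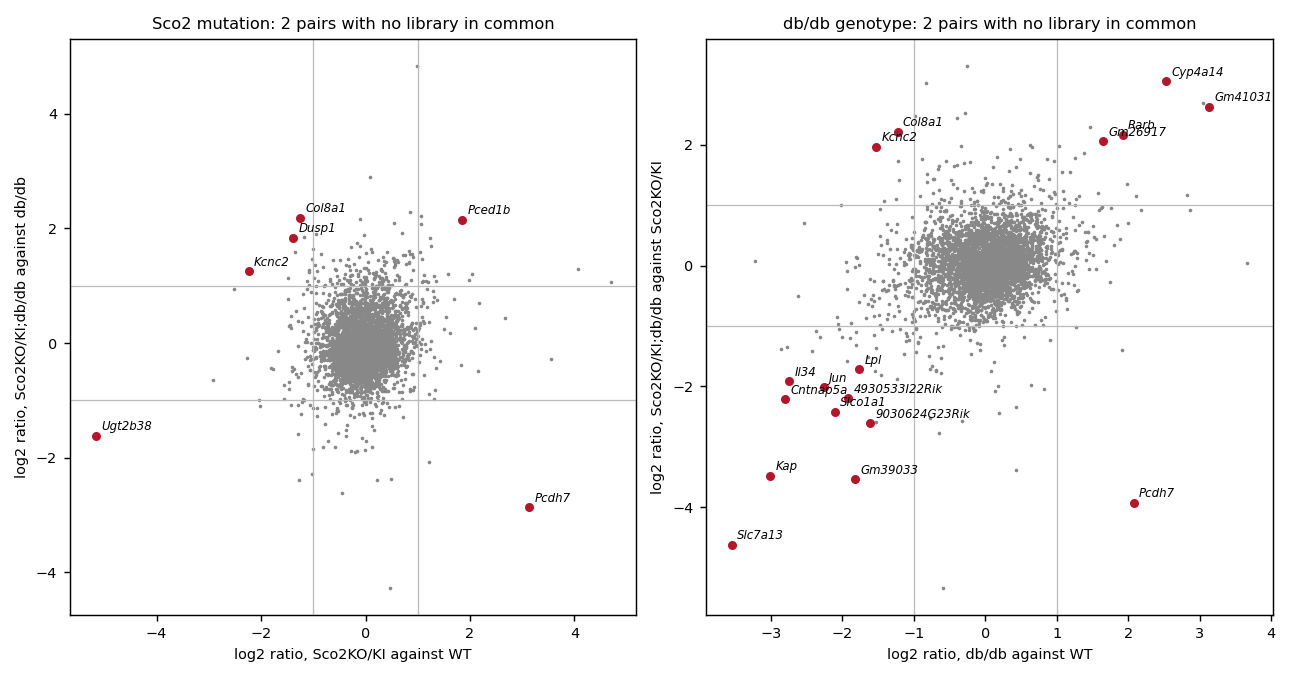
Each point is a gene of cluster 2, with its log2 ratio in 1 pair of libraries on the horizontal axis and in the pair with no library in common on the vertical axis, for the Sco2 mutation (r = 0.14) and the db/db genotype (r = 0.27). Pcdh7, at 3.13 and -2.87, lies far out among the opposite signs for the Sco2 mutation, and Kap, at -3.01 and -3.47, among the genes low in both for db/db.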

How the data were processed

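Nuclei of kidney cortex were profiled by droplet-based sequencing in 1 library per genotype. Cell Ranger, Seurat and the mm10 build were used, per the submitters' processing notes. No source used here gives versions or filters on nuclei. The deposited values are a normalised signal, the mean of UMIs per 10000 over the nuclei of a cluster in a library, as read from the values: each of the 83 columns totals 10000. Of 21481 entries 25 carried dates in place of gene names and were dropped, at most 0.307% of a column, and 21456 genes were used. No column was left unassigned (0). Doublets and barcodes shared between libraries cannot be counted from averages.

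Numbers of nuclei and UMI totals are estimates: a gene with a single UMI in a cluster takes the value 10000 over the number of nuclei times its nucleus's depth, so low values give whole multiples of the number of nuclei (relative tolerance 1e-10; 99.2% or more divisible in cluster 2). Clusters 0, 1, 2, 3 and 7 were taken as proximal tubule. Log2 ratios used a pseudocount of 0.1 and understate changes of low genes; genes at or above 0.5 in at least 1 library compared were described, with 2-fold as the limit. With 1 library per genotype no difference was tested. A ratio against a value listed at 0 is not given as a fold. Positions come from GENCODE vM21, which named 21117 genes.

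Named genes were the 12 highest and 12 lowest log2 ratios of 3 comparisons, the 5 highest and lowest of 2 others, those differing most from the other proximal tubule clusters (5 each way), and list members. Some genes that these rules name are not reported here, but counts and medians of lists include them. The markers, lists and rules were chosen with earlier results of these data known. Genes outside the rule (Chd9, Sugct and others whose pairs differ) come from the rule for pairs. Pseudocount, floor, rescaling without mitochondrial genes, centring and the reference cluster were varied. Computations used Python 3.11.15, numpy 2.4.6 and pandas 2.3.3.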

Additional observations from a re-analysis of the deposited data

Results flagged for a closer look

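In cluster 2 the Sco2 mutation went at least 2-fold in opposite directions in the lean and in the diabetic pair of libraries for 15 genes, and they are listed for this reversal. The difference was not tested, since each genotype has 1 library. The log2 ratio of the diabetic pair minus that of the lean pair was -6.00 for Pcdh7 and -3.30 for the gene model Gm3448. It was positive for the other 13, at 3.49 for Kcnc2, 3.44 for the collagen gene Col8a1, 3.29 for Tmem252, 3.23 for the phosphatase gene Dusp1, 3.02 for Chd9 and 2.95 for Sugct. Lower values were 2.65 for the cytochrome gene Cyp2j9, 2.62 for the mitochondrial calcium uptake gene Micu3, 2.48 for Ttc28, 2.36 for the nicotinic receptor gene Chrna4, 2.32 for the calcium-binding protein gene Calb1, 2.20 for the oxidoreductase gene Wwox and 2.09 for the sialyltransferase gene St3gal6. The gene model Gm15261 reversed in the same way between the pairs for the db/db genotype, with a difference of -2.28. Dusp1 was at 1.27 (WT), 0.422 (Sco2KO/KI), 0.136 (db/db) and 0.747 (double mutant), and Calb1, a transcript of the connecting tubule, at 0.458, 0.165, 0.341 and 0.946, beside connecting tubule marker sums, Calb1 included, of 4.31, 2.05, 3.59 and 6.82. Col8a1, at 0.378, 0.100, 0.104 and 0.832, passed the floor of 0.5 in the double mutant alone. So did Calb1 and St3gal6, the latter at 0.307, 0.0928, 0.201 and 0.507.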

How the results depend on the processing

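No paired analysis was possible because each genotype has 1 library, and no replicate could be left out. Rescaling without the mitochondrial genes and centring on the median of all genes left all 14 counts within 1.5 times. A pseudocount of 0.5 gave 22 genes higher and 22 lower in Sco2KO/KI against WT, 33 and 64 in db/db against WT, 60 and 29 in the double mutant against db/db, 38 and 43 against Sco2KO/KI, and 49 and 60 against WT. A floor of 1 gave 39 and 39, 52 and 99, 107 and 47, 65 and 60, and 69 higher in the last. With no floor they were 130 and 215, 161 and 252, 250 higher, 309 and 157, and 223 higher. For the Sco2 mutation in both pairs a pseudocount of 0.5 gave 3 higher and 1 lower, and a floor of 1 gave 7 lower. For the db/db genotype in both pairs the higher genes were 8 with a pseudocount of 0.5, 31 with 0.05, 12 with a floor of 1 and 31 with none, and the lower were 18 with a pseudocount of 0.5. Against the highest other cluster in place of the mean, the marker log2 ratios were -0.31 for Slc5a12, -0.28 for Slc6a19, -0.036 for Slc13a1 and -0.31 for Prodh2. In the other proximal tubule clusters the median had the other sign for Csgalnact1 (0.19), Eml4 (-0.33) and Ttr (-0.27) in Sco2KO/KI against WT and for Rnls (-0.26) in db/db against WT. The lipid uptake median of the double mutant against Sco2KO/KI became 0.23 without a floor. Causes were not tested. Of 114 named values 74 moved by over 1.5 times with a pseudocount of 0.5, all with their sign kept.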

Other observations

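Further gene groups of cluster 2 differed in single members. In db/db the circadian genes Cry2 (0.196 in WT and 0.656) and Per2 (0.517 and 1.20) were higher and Nr1d1 (0.604 and 0.189) and Bhlhe40 (1.28 and 0.506) lower, and the list had a median of -0.03 over 10 genes. The hypoxia-inducible factor genes Epas1 (0.181 and 0.568) and Hif1a (0.258 and 0.640) were higher in db/db, and passed the floor there only. Ndrg1 (17.4 and 8.41) was lower, and the hypoxia list had 3 of 5 genes above the floor higher, with a median of 0.40. Sgk1, a salt-retaining kinase gene of the glucocorticoid list, was at 0.171 and 0.671, and that list had 4 of 6 higher and a median of 0.09. Of 14 cholesterol synthesis genes measured 3 were above the floor. All 3 were lower in db/db, with a median of -1.11, among them Srebf2 (1.17 and 0.453), which passed the floor in WT only.

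Genes past 2-fold differed in genomic length. The lower genes of db/db against WT had a median span of 14.5 kb and the higher ones 50.5 kb, beside 56.5 kb over all genes compared. In the double mutant against db/db the higher genes had 27.2 kb and the lower ones 71.3 kb, beside 57.1 kb. Intron-rich long genes are counted more fully in nuclei, and the part of nuclear against cytoplasmic RNA in these differences was not tested.

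Genes near the mutated loci were also counted. Within 20 Mb of Lepr, 12 of 89 genes were past 2-fold in db/db against WT (13.5%), beside 5.98% of all 3981 genes with a position, and they included Cyp4a10, Cyp4a31, Cyp4b1 and Jun. In the double mutant against Sco2KO/KI, which also differ at Lepr, the share was 11.8% beside 5.32%. It was above that of all genes too in pairs with the same Lepr genotype, at 6.10% beside 3.46% in Sco2KO/KI against WT and 8.33% beside 5.84% in the double mutant against db/db. Within 20 Mb of Sco2, 2 of 86 were past 2-fold in Sco2KO/KI against WT (2.33% beside 3.46%), and 8 of 89 in the double mutant against db/db (8.99% beside 5.84%), among them Ppara and Vdr.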
